A study of Rattus norvegicus with 8 samples.

Results

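The genes described here are 10 components of transforming growth factor beta (TGF-beta) signalling: the ligands Tgfb1, Tgfb2, Tgfb3 and Inhba, the receptors Tgfbr1, Tgfbr2 and Tgfbr3, the signal transducer Smad3, its inhibitor Smad7 and the direct target Ctgf, now called Ccn2. They were chosen by gene symbol from the annotation of the array's probes, and 9 of the 10 were matched, each to 1 probe. Tgfbr2 was not matched to a probe symbol and was not analysed here. Of all 22523 probes, 9552 were detected well enough to be tested, and these held 8 of the 9 matched genes. Smad3 was not detected on any array and was not tested.

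Expression was measured in adipose-derived mesenchymal stem cells (ASCs), the adherent cells grown from the fat of LEW (Lewis/Jms) and PVG (Piebald Virol Glaxo) rats 8 weeks of age. In the authors' transplantation work, LEW is the strain that rejects a liver graft acutely and PVG the strain that comes to accept it. Untreated control ASCs and ASCs given lipopolysaccharide (LPS), a bacterial cell wall component sensed by the receptor Tlr4, at 1 µg/ml were collected after 24 h and 48 h, which gave 8 arrays. The 4 groups were LEW control, LEW LPS, PVG control and PVG LPS, with 1 array at 24 h and 1 at 48 h in each. RNA of 3 rats was pooled for each array, and the cells of each rat were divided among all 4 conditions of its strain. The p-values therefore measure the spread between arrays of the same pooled rats, not between rats, and each strain is represented by 1 set of 3 rats. In the fit over the 4 groups it is the spread between the 24 h and the 48 h array of a group, and so includes any change with time. A difference between strains cannot be told apart from a difference between these sets, their cell preparations or the cell types within them. ASC cultures are also mixtures, and fewer cells of a type and less RNA per cell cannot be told apart in them.

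TGF-beta ligands are secreted in a latent form, stored in the matrix and released to bind the type II receptor, which recruits and phosphorylates the type I receptor. The activated type I receptor phosphorylates SMAD proteins, which join Smad4 in the nucleus and switch on target genes such as Ccn2 and the inhibitor Smad7. In mesenchymal cells the pathway is known for inducing matrix and contractile genes, and in the immune system for restraining T cells.

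The values below are array signals scaled to a common 75th percentile, on a linear scale. A probe counted as detected at a detection p under 0.05, and between 8947 and 9509 probes were detected on an array. The lowest signal of a detected probe lay between 75 and 87.3, so a signal near 80 is at the background. Signals of different probes are not compared, except in sums of marker signals given below. Differences are on the log2 scale, from 1 fit of limma over the 4 groups, and a gene was said to pass when its p, adjusted by the method of Benjamini and Hochberg over all 9552 probes, was under 0.05. All 7 mesenchymal stromal cell markers that a probe measured were detected on every array, while 4 of 6 leukocyte markers (Ptprc, Cd163, Cd74 and Cd3e) and 3 of 6 endothelial markers (Cdh5, Vwf and Emcn) were detected on none. Of the rest, the leukocyte markers Aif1 and Itgam were detected on 3 arrays each, all of them PVG arrays. Their signals reached 91.6 and 93.0 there, near the background, and at most 69.4 and 85.3 in LEW. Neither passed for strain. The endothelial Tek was detected on 3 arrays, and the endothelial Tie1 and Cldn5 on 8, at up to 110 and 96.6.

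The 3 TGF-beta ligands were all higher in ASCs of PVG than of LEW rats. Tgfb3 was 8.13-fold higher, Tgfb2 3.79-fold and Tgfb1 2.28-fold, and each was higher in PVG in 4 of 4 pairs of arrays matched for treatment and time. These were the only members that passed the strain test, 3 of 8 higher and 0 lower. Over all probes tested, 7.45% passed as higher in PVG and 7.46% as lower. Before adjustment 5 of the 8 members had a p under 0.05, the other two being Tgfbr3 and Smad7, against 28.2% of all probes. In 3 of the 8 members, the same ligands, the 4 arrays of PVG did not overlap the 4 of LEW, as was so for 18.7% of all probes. The median difference was 0.28 over the 8 members and -0.01 over all probes. Tgfb1, Tgfb2 and Tgfb3 all stand in gene tables that the study drew from these same arrays, so their strain difference is not independent evidence.

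**Figure D1:**
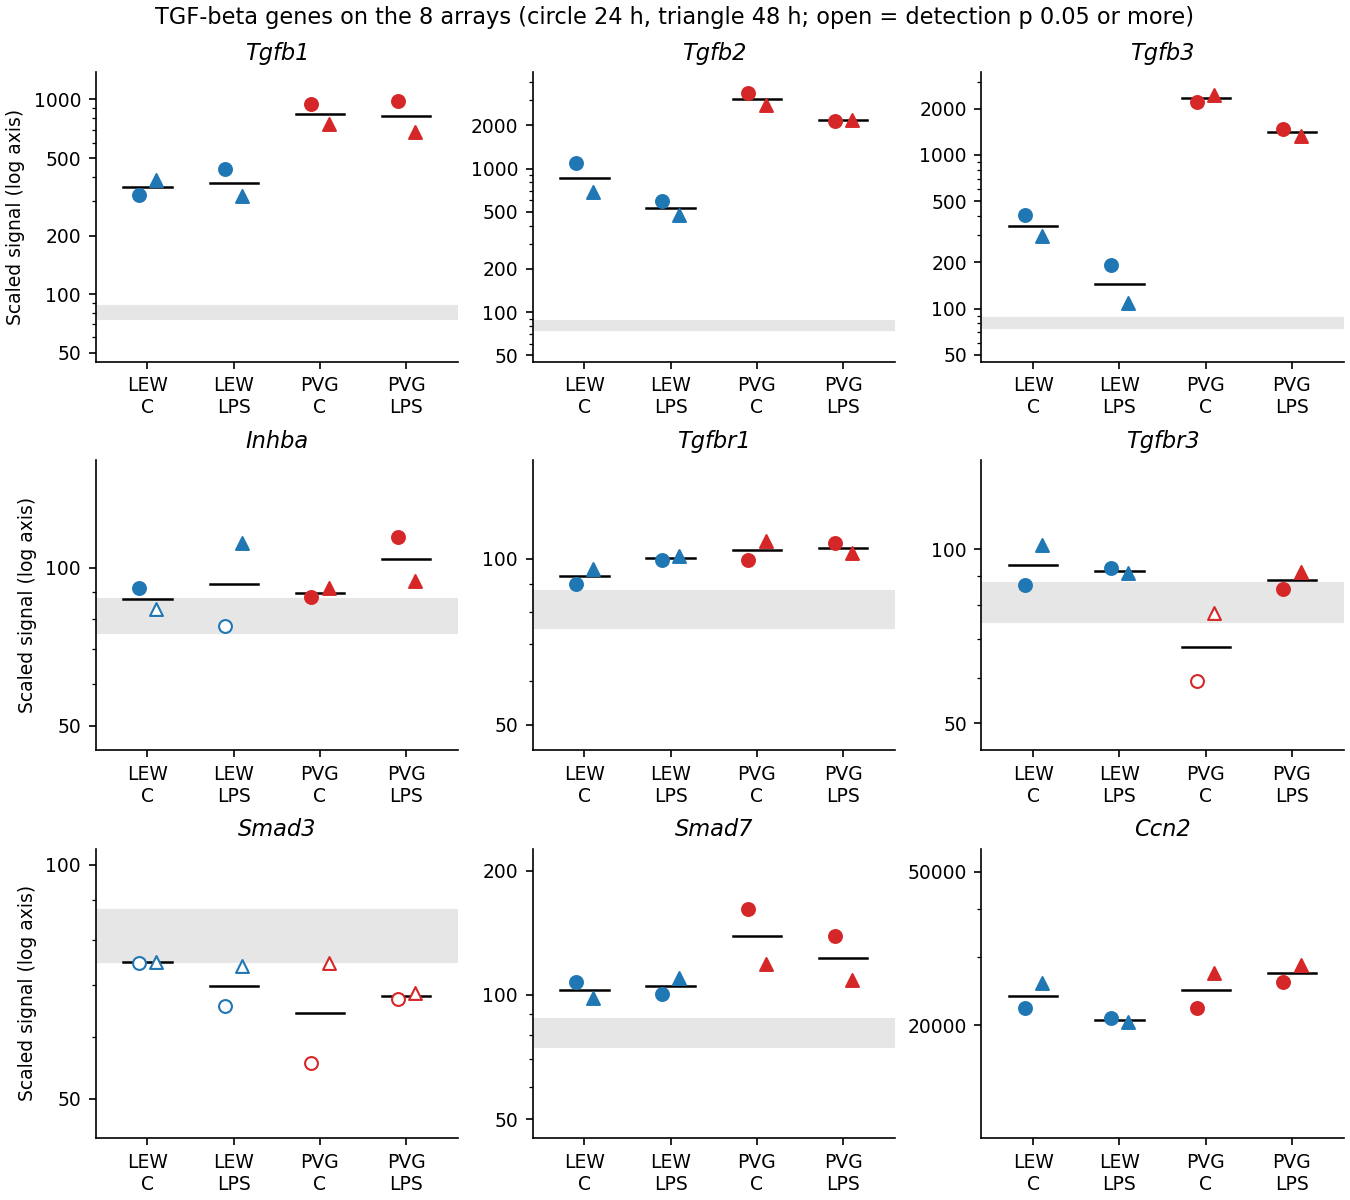
Scaled signal on a logarithmic axis of the 9 TGF-beta genes with a probe, in control (C) and LPS-treated ASCs of LEW (blue) and PVG (red) rats; circles are 24 h arrays, triangles 48 h arrays, open symbols arrays on which the probe was not detected, black lines the geometric mean of the 2 arrays, and the grey band the range over arrays (75 to 87.3) of the lowest detected signal. All 4 PVG arrays lie above all 4 LEW arrays for Tgfb1, Tgfb2 and Tgfb3, while Inhba, Tgfbr1, Tgfbr3, Smad3 and Smad7 lie near the band.

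Tgfb3, the isoform best known from palate closure and scarless wound repair, differed most. Its signal in LEW was 408 at 24 h and 295 at 48 h in control ASCs, and 191 and 108 in LPS-treated ASCs. In PVG it was 2227 and 2468 in control ASCs, and 1486 and 1326 in LPS-treated ASCs. The lowest PVG array lay above the highest LEW array, and the 2 arrays of each group lay clear of those of every other group, in the order PVG control, PVG LPS, LEW control, LEW LPS. The strain difference was 3.02 ± 0.18 (SE, adjusted p = 1.86e-05), with a 95% interval of 2.61 to 3.43. It was 2.76 in control ASCs (6.75-fold, adjusted p = 0.000442) and 3.29 in LPS-treated ASCs (9.78-fold, adjusted p = 0.000215). The signal of 108 in LEW LPS at 48 h lay near the background. With neqc background correction the strain difference over both treatments was 3.45.

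Tgfb2, an isoform with a large role in the development of heart, eye and connective tissue, followed the same order of groups. Its signal in LEW was 1095 and 684 in control ASCs at 24 h and 48 h, and 595 and 472 with LPS. In PVG it was 3348 and 2755 in control ASCs, and 2150 and 2190 with LPS. Again no 2 groups overlapped. The strain difference was 1.92 ± 0.16 (SE, adjusted p = 9.18e-05, interval 1.57 to 2.28), with 1.81 in control ASCs (adjusted p = 0.00179) and 2.03 in LPS-treated ASCs (adjusted p = 0.0011).

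Tgfb1, the isoform most studied in immune tolerance and fibrosis, showed the smallest strain difference of the 3 ligands and no order between control and LPS. In LEW its signal was 325 and 387 in control ASCs at 24 h and 48 h, and 438 and 319 with LPS. In PVG it was 948 and 750 in control ASCs, and 984 and 680 with LPS. The strains did not overlap, whereas within each strain the control and LPS arrays did. The strain difference was 1.19 ± 0.16 (SE, adjusted p = 0.00139, interval 0.83 to 1.55). It was 1.25 in control ASCs (adjusted p = 0.0119) and 1.13 in LPS-treated ASCs (adjusted p = 0.0222).

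In control ASCs 3 of the 8 members were higher in PVG, against 3.63% of all probes, and in LPS-treated ASCs the same 3, against 2.93%. The call of Tgfb1 was the least firm of these. In control ASCs its adjusted p rose to 0.0721 when the 24 h array of LEW control was left out, and to 0.139 and 0.0575 when the 24 h or the 48 h array of PVG control was. In LPS-treated ASCs it rose to 0.0976 on leaving out LEW LPS at 48 h, to 0.15 on leaving out PVG LPS at 24 h and to 0.0573 on leaving out either PVG control array.

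The promoter of Tgfb1 is shown because it is the one ligand among those that differed whose RefSeq promoter window begins at the outermost annotated start of the gene. The 250 bases lie at chr1:90324062-90324311 on the plus strand of GRCr8, and the letters in capitals are the core of the cyclic AMP response element, TGACG, read here from the other strand. It lies 30 to 26 bases before the start, and 18.96% of 27457 rat promoter windows of this length hold one on either strand.
Tgfb1: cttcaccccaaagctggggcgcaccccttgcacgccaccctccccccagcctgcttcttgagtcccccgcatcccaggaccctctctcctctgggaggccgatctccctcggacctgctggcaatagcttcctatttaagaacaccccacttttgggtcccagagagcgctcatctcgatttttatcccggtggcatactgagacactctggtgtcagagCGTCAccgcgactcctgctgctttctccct
The window was not compared between the strains, and the match is a description of the reference sequence.

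Inhba, the subunit that forms activin A, a ligand of the same superfamily, was close to the background. Its signal ran from 77.6 to 111 in LEW and from 87.8 to 114 in PVG, and it was detected on 6 of 8 arrays, 2 of LEW and 4 of PVG. The strains overlapped, and the difference was 0.10 (interval -0.19 to 0.39, adjusted p = 0.711).

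The receptors showed no strain difference that passed the test. Tgfbr1, the type I receptor kinase, was detected on 8 of 8 arrays at 90.2 to 101 in LEW and 99.6 to 108 in PVG. Its difference was 0.11 with an interval of -0.07 to 0.29. With neqc background correction it was 0.26 (adjusted p = 0.165), and at signals this near the background the interval does not bound the difference in expression.

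Tgfbr3, or betaglycan, the co-receptor that presents Tgfb2 to the type II receptor, was the one member lower in PVG in its point estimate. In control ASCs of LEW its signal was 86.6 at 24 h and 102 at 48 h, and with LPS it was 92.9 and 90.8. In PVG it was 59.3 and 77.6 in control ASCs, both below detection, and 85.2 and 91.5 with LPS. The PVG control arrays were the low ones, and the PVG LPS arrays overlapped those of LEW. Over both treatments the difference was -0.26 (interval -0.51 to -0.02, adjusted p = 0.153). With each PVG control signal raised to the lowest detected signal of its array, the LEW control mean was 1.16-fold that of PVG. This is a point value without an interval. In control ASCs the fitted difference was -0.47 (interval -0.82 to -0.12, adjusted p = 0.124). With the time point as a block it passed (adjusted p = 0.0399), and with neqc background correction it was -0.82 and passed as well (adjusted p = 0.0416). In control ASCs 12.7% of all probes passed with the block and 7.55% with neqc, against 6.94% in the analysis reported.

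Smad3, the transducer that carries the signal to the nucleus, gave 65.8 to 74.9 in LEW and 55.6 to 74.6 in PVG and was below detection on all 8 arrays, so no difference is given. Smad7, which blocks the type I receptor and is itself induced by TGF-beta, was detected on all 8. In control ASCs of LEW its signal was 108 at 24 h and 98.4 at 48 h, and with LPS it was 100.4 and 109.8. In PVG it was 162 and 119 in control ASCs, and 139 and 108.8 with LPS. The 24 h arrays of PVG were the high ones, and the PVG LPS array at 48 h fell within the range of LEW. The strain difference was 0.33 ± 0.13 (SE, interval 0.04 to 0.61, adjusted p = 0.123). With the time point as a block its adjusted p was 0.044, which took the members passing for strain from 3 to 4. The share of all probes passing in either direction rose with the block from 14.9% to 23.4%.

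Ccn2, a secreted matrix protein and a widely used readout of TGF-beta signalling, had bright signals in both strains. In control ASCs of LEW it was 22197 at 24 h and 25694 at 48 h, and with LPS it was 20942 and 20368. In PVG it was 22112 and 27398 in control ASCs, and 25899 and 28730 with LPS. Control ASCs of the strains overlapped, and with LPS both PVG arrays lay above both LEW arrays. The strain difference was 0.22 (interval -0.01 to 0.45, adjusted p = 0.193) over both treatments. It was 0.40 in LPS-treated ASCs (interval 0.08 to 0.73, adjusted p = 0.164).

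The promoter of Ccn2 is shown because it is the target among the members and carries motifs of the factors through which the human gene is known to respond. The 250 bases before its start lie at chr1:22624615-22624864 on the minus strand of GRCr8. Capitals mark, in order, a SMAD binding element (CAGAC), 3 TEAD sites (GGAATG) and a TATA box (TATAAA), none overlapping another.
Ccn2: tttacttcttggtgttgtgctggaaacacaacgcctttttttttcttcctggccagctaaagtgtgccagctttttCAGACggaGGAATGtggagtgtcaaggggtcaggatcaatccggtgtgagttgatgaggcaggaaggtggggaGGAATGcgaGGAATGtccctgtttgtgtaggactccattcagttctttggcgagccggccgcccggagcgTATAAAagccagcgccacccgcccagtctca
Searched on both strands, CAGAC was present in 42.76% of the 27457 windows, GGAATG in 11.76% and TATAAA in 13.09%. Among the 5 members whose window begins at the outermost start of the gene (Tgfb1, Tgfbr3, Smad3, Smad7 and Ccn2), Ccn2 was the 1 holding each of these.

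**Figure D2:**
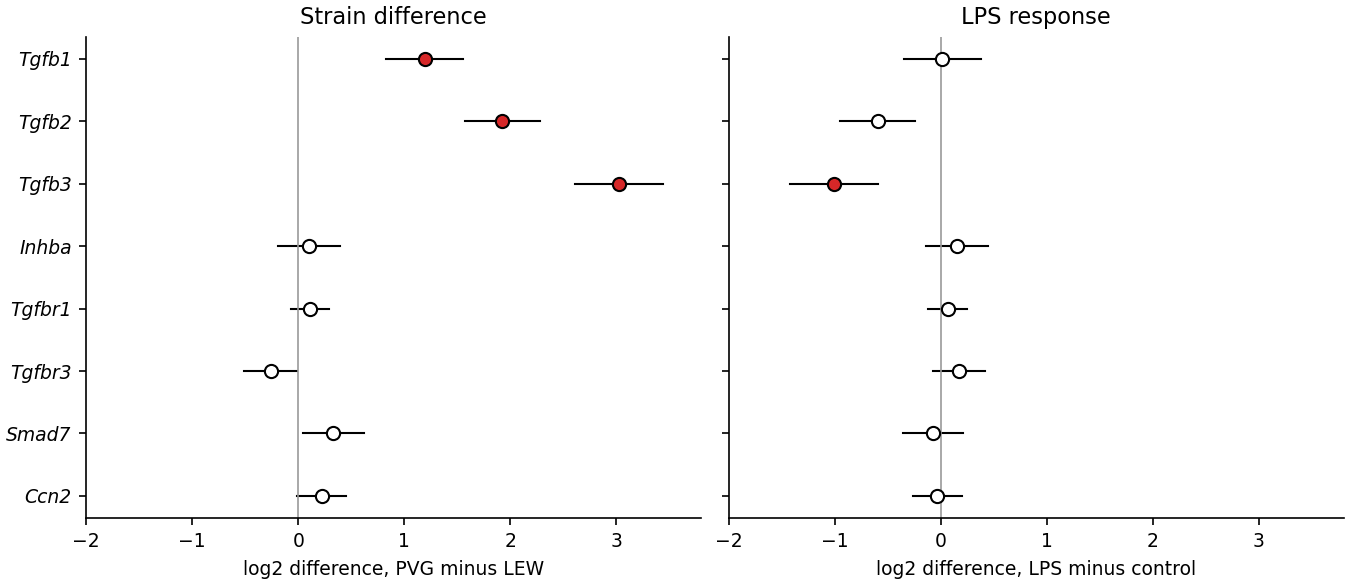
Log2 difference of the 8 tested TGF-beta genes between strains (PVG minus LEW, left) and between treatments (LPS minus control, right), from limma, with 95% confidence intervals as lines and red points for an adjusted p under 0.05. Tgfb1 (1.19), Tgfb2 (1.92) and Tgfb3 (3.02) stand apart from 0 on the left, and Tgfb3 (-1.01) on the right.

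LPS lowered Tgfb3 and no other member passed the test. Across both strains Tgfb3 fell 2.01-fold, by 1.01 ± 0.18 on the log2 scale (SE, interval -1.42 to -0.59, adjusted p = 0.027), and it was lower with LPS in 4 of 4 matched pairs. The members passing were thus 1 of 8 lower and 0 higher, against 0.806% and 1.46% of all probes. Before adjustment 2 of the 8 had a p under 0.05, Tgfb2 being the second, against 12.7% of all probes. Comparing LPS with control at each time, Tgfb3 differed by -1.10 and -1.45 in LEW and by -0.58 and -0.90 in PVG at 24 h and 48 h. The Tgfb3 call was lost in several settings. Its adjusted p was 0.083 on leaving out LEW control at 24 h, 0.066 or 0.104 on leaving out PVG LPS at 24 h or 48 h, and 0.163 or 0.142 on leaving out PVG control at 24 h or 48 h. It was 0.0635 with quantile normalization and 0.0637 in the quantile-normalized second deposit, whereas blocking on the time point gave 0.000632. The study's own tables, drawn from these same arrays, also give lower values with LPS for Tgfb2 and Tgfb3. The LPS differences of these 2 genes are thus not independent evidence either.

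Tgfb2 moved in the same direction with a smaller size. Its LPS difference was -0.60 ± 0.16 (SE, interval -0.95 to -0.24, adjusted p = 0.111), and it was lower with LPS in 4 of 4 matched pairs, by -0.88 and -0.54 in LEW and by -0.64 and -0.33 in PVG at 24 h and 48 h. With the time point as a block, which removes what arrays of 1 time share, its adjusted p was 0.00968 and the members passing were 2 of 8, both lower, while the share of all probes passing in either direction rose from 2.26% to 6.12%. It also passed when LEW LPS at 24 h (0.0448) or LEW control at 48 h (0.0411) was left out.

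**Figure D3:**
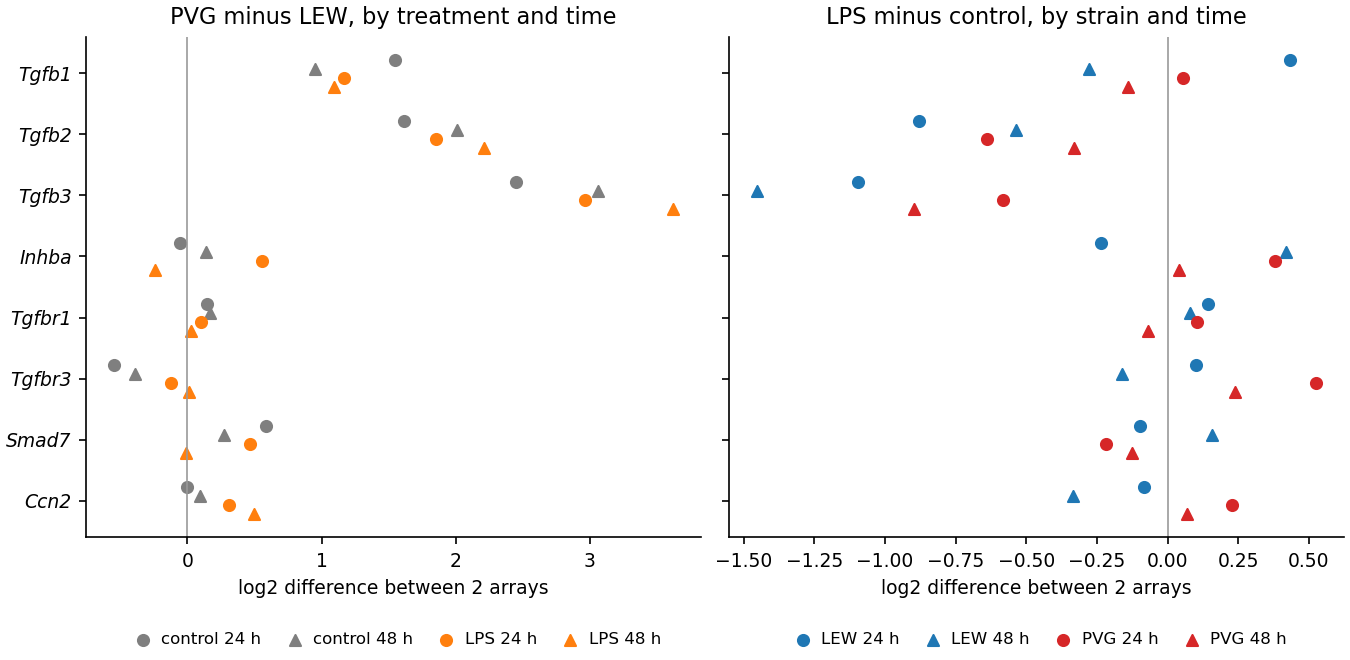
Log2 differences between single arrays matched for the other factors, for the 8 tested TGF-beta genes: PVG minus LEW by treatment and time on the left, LPS minus control by strain and time on the right, 4 pairs each, with circles for 24 h and triangles for 48 h. All 4 pairs of Tgfb2 and Tgfb3 lie to the right of 0 for strain (1.61 to 2.21 and 2.45 to 3.62) and to the left of 0 for LPS (-0.88 to -0.33 and -1.45 to -0.58).

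Within LEW ASCs alone 0 of the 8 members passed the limma test for LPS, against 0.649% of all probes, and 2, Tgfb2 and Tgfb3, had an unadjusted p under 0.05, against 9.77%. Tgfb3 differed there by -1.27 (2.42-fold, adjusted p = 0.0806) and Tgfb2 by -0.71 (adjusted p = 0.259). When time points were blocked both passed, at 0.00696 and 0.0374, against 3.52% of all probes. Without the LEW LPS 24 h array Tgfb3 passed at 0.00173 with a difference of -1.69, in a fit that takes the single LEW LPS array left to vary like the arrays of the other groups. Within PVG ASCs 0 of 8 passed, against 0.314% of all probes, and 2 had an unadjusted p under 0.05, Tgfb3 and Tgfbr3, against 7.34%. Tgfb3 differed there by -0.74 (interval -1.32 to -0.16, adjusted p = 0.493) and Tgfb2 by -0.49 (interval -0.99 to 0.02, adjusted p = 0.711).

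The LPS responses of the strains were not shown to differ for any member. In the limma interaction test 0 of 8 passed and 0 had an unadjusted p under 0.05, against 0.0314% of all probes passing. For Tgfb3 the response of PVG minus that of LEW was 0.53 with an interval of -0.29 to 1.36, and for Tgfb2 it was 0.22 with an interval of -0.49 to 0.93. Both intervals are wide enough to hold a response in 1 strain more than 1.5 times that in the other.

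The remaining members gave small LPS differences with intervals across 0. Tgfb1 differed by 0.02 (interval -0.34 to 0.38), Inhba by 0.15 (interval -0.14 to 0.44) and Tgfbr1 by 0.06 (interval -0.12 to 0.24). Tgfbr3 differed by 0.18 (interval -0.07 to 0.42), Smad7 by -0.07 (interval -0.36 to 0.21) and Ccn2 by -0.03 (interval -0.26 to 0.20). The signals of Inhba, Tgfbr1, Tgfbr3 and Smad7 lay so near the background that a fall of the size of Tgfb3 would have put most of them at or below it.

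Between 24 h and 48 h 0 of the 8 members passed in limma, against 3.93% of all probes, and 2, Tgfb2 and Tgfb3, had an unadjusted p under 0.05, against 17.6%. At 48 h the 3 ligands were lower than at 24 h by point estimate, Tgfb1 by -0.27 (interval -0.54 to 0.01), Tgfb2 by -0.32 (interval -0.56 to -0.07) and Tgfb3 by -0.33 (interval -0.63 to -0.02). Each was lower at 48 h in 3 of 4 pairs, and their adjusted p-values ran from 0.161 to 0.297.

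Beyond the members, 119 genes of the wider pathway were listed by role, of which 94 had a probe and 76 were tested. Between strains 18 of them (23.7%) were higher in PVG and 7 (9.21%) lower, with a median difference of 0.06, against 7.45% and 7.46% of all probes. The share lower was thus near that of all probes, and a single gene passing in a list of 6 to 8, as in several lists below, is near the 14.9% of all probes that passed in either direction. Of 7 genes of TGF-beta activation and storage 1 passed, the integrin subunit Itgb5, higher by 0.37. Among 6 matrix proteins that bind TGF-beta, Dcn, the proteoglycan decorin that sequesters the ligands, was 14.2-fold lower in PVG (difference -3.83 ± 0.32, SE, adjusted p = 0.000116). Its signal ran from 5382 to 19576 in LEW and from 372 to 1750 in PVG. In the same list Bgn, the related biglycan, was higher by 0.57 and Fbn1, the fibrillin that anchors latent complexes, by 0.96.

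Of 8 other receptors of the superfamily 1 passed, Acvrl1, higher by 0.36, and of 7 other ligands 2 passed, Bmp6 and Gdf15, higher by 0.70 and 0.60. The extracellular antagonists moved both ways, with 2 of 7 higher and 3 lower in PVG. Fst and Fstl3, which bind activin, were higher by 1.23 and 1.42. Grem1, Nbl1 and Chrd, which bind bone morphogenetic proteins, were lower by -1.83, -1.05 and -0.79. Inhba, the activin subunit among the members, did not pass beside them.

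Of 6 other SMADs 1 passed: Smad4, the common partner of all the signalling SMADs, was 2.64-fold lower in PVG (difference -1.40 ± 0.11, SE, adjusted p = 8.54e-05), at 541 to 779 against 1505 to 1967 in LEW. It stands in the study's own tables as well, as do Bmp6, Fst, Fstl3, Grem1, Nbl1 and Chrd above and Actg2, Des and Wt1 below. Those tables were drawn from these same arrays, so the strain differences of these genes are not independent evidence. Dab2, an adaptor of the receptors, was lower by -1.35, the 1 of 6 SMAD partners that passed. Of 11 other target genes 1 passed, Tgfbi, lower by -0.83, and of 10 inducible matrix genes 3 passed, Col3a1, Ccn4 and Loxl2, higher by 1.28, 0.70 and 0.34. In the list of other target genes 8 of the 11 differences were positive, with a median of 0.26 against -0.01 over all probes. None of the positive ones passed.

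**Figure D4:**
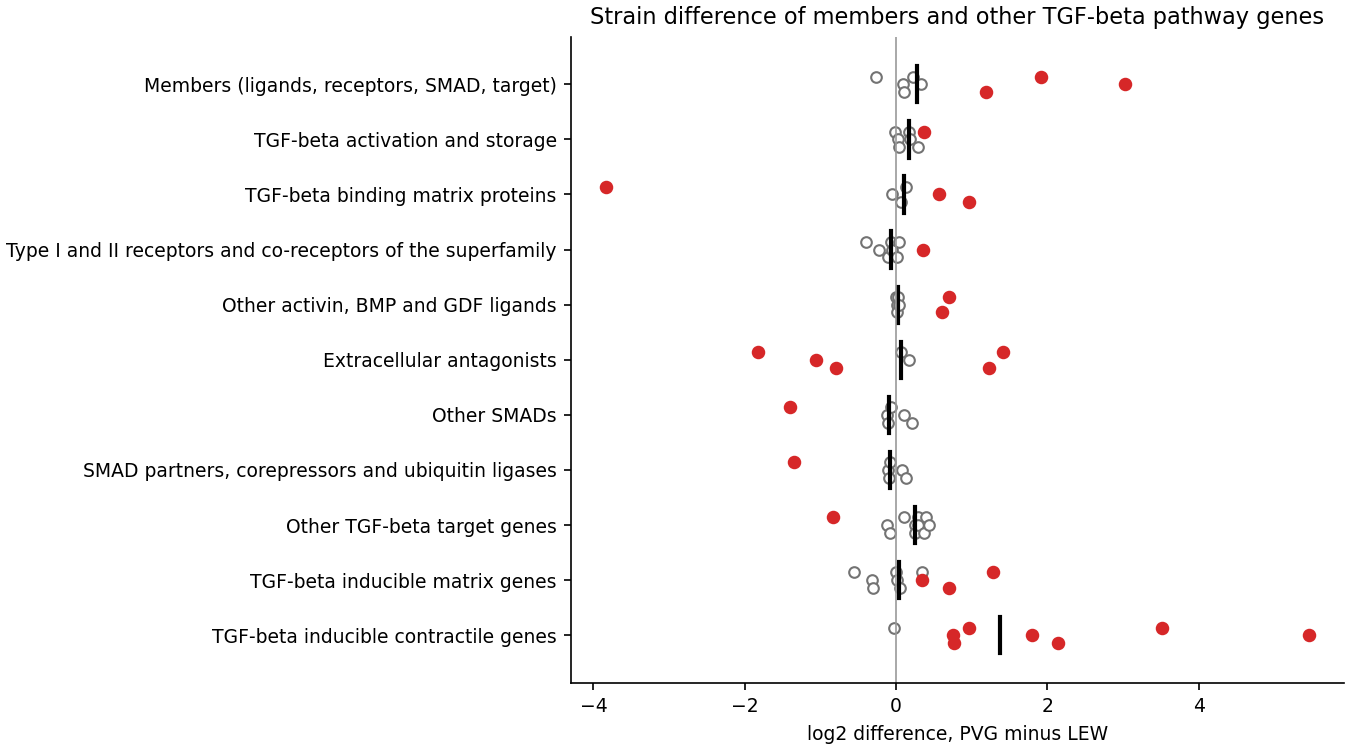
Log2 difference between strains (PVG minus LEW) of the 8 tested members and of 76 other genes of the pathway, each point a gene, by list; red points passed at an adjusted p under 0.05, open points did not, and vertical bars are list medians. The contractile genes lie to the right with a median of 1.38, Dcn lies far to the left at -3.83, and the members have a median of 0.28 and the other lists medians between -0.09 and 0.26.

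The inducible contractile genes had the most calls of the lists, with 7 of 8 tested higher in PVG, 0 lower and a median difference of 1.38. Over all probes 7.45% passed as higher. These 7 are among the 18 pathway genes counted above as higher in PVG, and the list was chosen with earlier results of these data known. Actg2, smooth muscle gamma actin, was 43.8-fold higher (difference 5.45 ± 0.27, SE, adjusted p = 1.12e-05), at 6010 to 12654 in PVG against 97.2 to 323 in LEW. Des, the muscle intermediate filament desmin, was 11.4-fold higher, at 887 to 1659 against 93.6 to 104. Myl9 and Tagln, a myosin light chain and an actin binding protein, were higher by 2.14 and 1.79, and Cnn1, Tpm1 and Cald1 by 0.96, 0.76 and 0.77. These genes also mark smooth muscle cells and pericytes. Of a list of 10 markers of those cells 8 had a probe and 5 of 5 tested were higher in PVG, against 7.45% of all probes. Of these 5, 3 (Des, Cnn1 and Actg2) were shared with the contractile list. The other two were Smtn (544 to 898 against 280 to 468 in LEW) and the pericyte marker Cspg4 (141 to 218 against 75.2 to 122, detected on 7 arrays). The summed signal of the 8 was 858 to 1339 in LEW and 8354 to 15180 in PVG, most of the latter from Actg2. Without Actg2 the sum was 761 to 1047 in LEW and 2011 to 3196 in PVG. Both sums hold background signal, since the pericyte markers Rgs5 and Notch3 in them were below detection on all 8 arrays and Kcnj8 on 7 of 8. The part of these cells in the strain difference of the ligands was not tested. Of 3 mesothelial markers tested 1 was higher in PVG, Wt1 (216 to 250 against 79.2 to 92.4, detected on 5 arrays). Msln and Krt8 did not pass and the median of the 3 was -0.10. Of 2 Schwann cell markers tested 1 was lower, S100b (74.7 to 87.5 against 769 to 1211, detected on 5 arrays). Ngfr did not pass, and Sox10 and Gfap were below detection on every array. Wt1 lay near the background in LEW and S100b in PVG, so each was kept for testing only through the strain in which it was high.

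With LPS 5 of the 76 pathway genes (6.58%) were higher and 0 lower, against 1.46% of all probes higher. Emilin1, a matrix protein that holds back the processing of latent TGF-beta, rose 3.00-fold (difference 1.59 ± 0.17, SE, adjusted p = 0.00435), with signals of 182 to 290 in control ASCs and 490 to 945 with LPS. Vcan, Grem1, Bmp6 and Lox rose by 0.84, 0.76, 0.62 and 0.43. With time points blocked 9 were higher and 2 lower, against 6.12% of all probes in either direction. Before adjustment 11 had a p under 0.05 in each direction, against 12.7% of all probes in both together. For the contractile genes the median LPS difference was -0.32. By limma 0 of the 8 passed, while Tagln, Myl9 and Actg2, 3 of the 8, had an unadjusted p under 0.05 and negative differences. With time points blocked 1 of the 8 passed as lower, against 6.12% of all probes in either direction. The count also moved when the LEW LPS 24 h array was left out, as did the share of all probes passing.

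Over the 8 arrays the signals of Tgfb2 and Tgfb3 ran closely together, with a Pearson r of 0.989 on the log2 scale. Among 5746 named probes detected on all 8 arrays, Tgfb3 was the most like Tgfb2 and was followed by Chst1 (r = 0.986) and the contractile gene Cald1 (r = 0.984). For Tgfb3 the most alike were Dbndd2 (r = 0.992), Prss35 (r = 0.991) and Tgfb2. For Tgfb1 they were Dnal1 (r = 0.984), Rbms2 (r = 0.979) and Pkp1 (r = 0.975). These correlations describe 8 arrays that share 2 sets of rats in which the strains lay apart for all 3 ligands.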

How the data were processed

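RNA of ASCs was hybridised to Illumina RatRef-12 arrays. Per the file headers, the authors deposited bead summary signal intensities on a linear scale, neither background-subtracted nor normalized, with a detection p-value per probe and array. Another table deposited by the authors gives intensities brought to equal quantiles on all arrays. The methods name GeneSpring GX for the study's own analysis.

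Each array was divided to give all the same 75th percentile. A floor of 16 changed 0 values, and log2 was taken. The 9552 of 22523 probes kept were those detected (p under 0.05) on the 24 h and the 48 h array of 1 or more groups. A platform annotation gave 13793 probes a gene symbol and 8730 none. The 24 h and 48 h arrays served as the 2 arrays of a group in limma 3.58.1 (R 4.3.3). Time was also tested, within groups. Time points pair the arrays, since deviations from the group means correlated at 0.22 to 0.463 between arrays of the same time. The fit over the 4 groups leaves this pairing out, and the time block is given as an alternative. A fold of 1.5 served for single arrays. The procedure was also run on simulated data, with noise drawn independently for each array, so that run did not hold the pairing by time. Depth does not apply to arrays, whose number limits the precision.

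The members, and the lists of pathway genes and markers, were chosen with earlier results of these data known. All members were named, up to 4 genes of each list with the smallest p among those passing for strain or LPS, and for each ligand that passed the 3 named probes with the highest r. Fst, Cnn1, Tpm1, Cald1 and the cell type markers were named after their values were seen. Promoter windows came from RefSeq (GRCr8), where 9 of 9 matched members had one, and Tgfb2, Tgfb3, Inhba and Tgfbr1 had a window inside the annotated gene. Probe sequences were not used here, so a strain variant under a probe was not tested. Alternatives changed the background correction (neqc, normexp with offset 50), normalization, filter, floor (64), variance model and time block, and left out each array. Figures were drawn with matplotlib 3.10.9 in Python 3.11.15, and tables were handled in pandas 2.3.3 and numpy 2.4.6.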

Additional observations from a re-analysis of the deposited data

Results flagged for a closer look

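The LPS response of Ccn2 pointed opposite ways in the strains at both time points. LPS minus control was -0.08 and -0.34 in LEW at 24 h and 48 h, and 0.23 and 0.07 in PVG. The response of PVG minus that of LEW was 0.36 on the log2 scale (interval -0.10 to 0.82), and limma's interaction test gave a p of 0.113 and an adjusted p of 0.999, so a difference between the strains was not shown. With 2 arrays a group no array could be tested for lying far from the others.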

How the results depend on the processing

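The strain calls of the members were the steadiest: between 2 and 4 passed under 19 alternatives, 11 that changed the processing or model and 8 that each left out 1 array, against 3 in the analysis reported, and 3 under every left-out array. With an array left out, the 1 array remaining in its group is assumed to vary like those of the other groups. Without limma's moderation of the variances (the same model, fewer degrees of freedom), 0 members passed in control ASCs and 0 in LPS-treated ASCs. Of all probes 0.806% and 0.66% passed there, against 6.94% and 6.05% with moderation. For strain Tgfb1 missed without moderation (adjusted p = 0.066), and 12 of the other pathway genes passed in place of 25 and 4 contractile genes in place of 7. The share of all probes passing for strain fell there from 14.9% to 4.87%. In control and in LPS-treated ASCs, leaving out 1 array cost only Tgfb1 its call, in some of the fits, while the share of all probes passing moved too.

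The LPS calls moved most. In place of 1 member, 2 passed in the additive fit, with no detection filter and with the time point as replicate block, and 0 passed without moderation, with neqc (Tgfb3 at 0.0614), with quantile normalization and with the second set of deposited values. Of all probes 2.26% passed for LPS in the analysis reported, 5.03% in the additive fit, 1.51% with no filter and 6.12% with the block. The share was 0.0942% without moderation, 2.32% with neqc, and 1.89% both with quantile normalization and with the second set. Leaving out 1 array gave 0 to 2. In place of 5 other pathway genes, 8 passed in the additive fit, 0 without moderation, 8 with no filter, 11 with the block, and 1 to 16 with 1 array left out, the lowest without the PVG control 48 h array and the highest without the LEW LPS 24 h array. In place of 0 contractile genes, 1 passed with the block and 0 to 3 with 1 array left out. Within LEW, in place of 0 members, 1 passed with no filter, 2 with the block and 0 to 1 with 1 array left out. Of all probes 0.649% passed within LEW in the analysis reported, 0.773% with no filter and 3.52% with the block. The block changed no member's call for the interaction, for LPS in PVG or for strain with LPS. The causes were not tested.

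Some differences that did not pass changed sign. For Tgfb1 the LPS difference ranged from -0.12 to 0.15 with 1 array left out, with -0.10, -0.05, -0.12 and -0.07 among the 4 that turned negative. For Ccn2 it was 0.0014 with normexp and ranged from -0.11 to 0.05 with 1 array left out, with 0.022, 0.0068 and 0.047 above 0. For Smad7 it ranged from -0.18 to 0.04, with 0.017 and 0.040 above 0. The strain difference of Inhba ranged from -0.032 to 0.23 and the interaction of Tgfb2 from -0.12 to 0.56. Another probe of a member could not be tried, since each had 1. Signals near the background bound what can be said of Inhba, Tgfbr1, Tgfbr3, Smad3 and Smad7, and of Tgfb3 in LEW ASCs with LPS at 48 h (108). Across the alternatives the strain difference of Tgfb3 in LPS-treated ASCs ranged from 2.88 to 3.96. Its interaction ranged from 0.12 to 1.01.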
